A study of Mus musculus with 16 samples.

Results

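Matrix glycoproteins, small proteoglycans and the enzymes that build and cut the extracellular matrix of fat were followed as a list of 36 named genes. Each symbol was matched to its Ensembl identifier, and all 36 were found among the 30325 genes of the gonadal table and the 30946 genes of the subcutaneous table. The list holds 10 matrix glycoproteins, 5 proteoglycans, 7 crosslinking or hydroxylating enzymes, 10 proteases and 4 protease inhibitors. Tissue came from female Lcn2-null mice on a C57BL/6J background, and this deletion was shared by every group. Lcn2 encodes lipocalin-2, a secreted protein that binds iron-carrying siderophores. At 8 weeks of age they received an AAV8 vector into the blood, which carried either LCN2 or green fluorescent protein (GFP) behind the promoter of adiponectin, a fat cell gene, with a microRNA122 target that lowers its expression in liver. All mice then ate an HF/HS diet until fat was taken at 16 weeks. There were 4 gonadal samples with the LCN2 vector, 4 gonadal samples with the GFP vector, 4 subcutaneous samples with LCN2 and 4 subcutaneous samples with GFP. The comparison asked how LCN2 made in fat cells changes expression in each depot, and it was made within a depot, since the depots had been normalized apart.

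Fat cells sit in a mesh of collagen fibres, and that mesh is rebuilt as a depot expands. Glycoproteins and small leucine-rich proteoglycans bind collagen and set how its fibres assemble, lysyl oxidases link the fibres to each other, and prolyl and lysyl hydroxylases modify collagen chains before they are secreted. Matrix metalloproteinases (MMPs) and ADAMTS proteases cut or process these proteins, and tissue inhibitors of metalloproteinases (TIMPs) block many of these proteases. In fat, most of these genes are expressed chiefly by fibroblasts, progenitors, vessel-wall cells and macrophages, while some, such as Sparc, are also expressed by adipocytes. In whole tissue, fewer cells of a type and less RNA per cell cannot be told apart.

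Gonadal libraries held between 35173260 and 42890102 reads, recovered from the deposited values, and no depth can be read for subcutaneous libraries, whose values are not counts. Lcn2 itself was first examined as a check of the vectors. In gonadal fat its normalized counts (reads divided by a size factor per sample) were 186, 189, 522 and 481 with LCN2, against 103, 62.1, 70.0 and 89.5 with GFP. In subcutaneous fat Lcn2 had values of 8.74, 8.49, 9.45 and 9.82 on the rlog scale (regularized log2) with LCN2, against 7.76, 8.32, 8.23 and 8.37 with GFP. The groups did not overlap in either depot (two-sided exact permutation test, p = 0.0286 in each, the smallest that 4 against 4 allows). In subcutaneous fat the Lcn2 difference, LCN2 minus GFP, was 0.95 ± 0.29 (SE), with an adjusted p of 0.315 in limma. Lcn2 was also counted in the GFP samples, although these mice were Lcn2-null, and the source of these reads was not tested. Adipoq, an adipocyte gene, was abundant in every sample, between 83890 and 144729 normalized counts in gonadal fat and between 15.77 and 16.36 rlog in subcutaneous fat. Some libraries stood apart in transcripts of other tissues. In gonadal fat, skeletal muscle markers took 0.162% of reads in LCN2 replicate 4 and at most 0.0209% elsewhere. Markers of lymphocytes, in subcutaneous fat, summed to 2652 in LCN2 replicate 4 and to between 509 and 660 in the other LCN2 samples, against 11072 and 6401 in GFP replicates 1 and 2 and 590 and 633 in the other GFP samples (rlog values brought back to a linear scale). Hepatocyte markers took between 0.0901% and 0.274% of gonadal reads with LCN2 and between 0.158% and 0.529% with GFP, with GFP replicate 2 highest, and most of these reads were of Cyp2e1, which fat itself expresses. Of the 10 hepatocyte markers 8 had gonadal differences above 0, with a median of 1.35. Alb (albumin) had 11019, 28487, 3199 and 1271 normalized counts with LCN2, against 9989, 1517, 1928 and 1773 with GFP, so it was highest in LCN2 replicates 1 and 2 and GFP replicate 1. In subcutaneous fat hepatocyte markers summed to between 15962 and 21345 with LCN2, against 64924 in GFP replicate 2 and 17561 to 40421 in the other GFP samples, and 9 of 10 had differences below 0, with a median of -0.74. Values without GFP replicates 1 and 2 are given for the subcutaneous genes, and the part of these tissues was not tested.

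Levels in gonadal fat were compared between genes as RPKM, recovered reads scaled to exon length and library size. Sparc, a collagen-binding glycoprotein, was the most abundant of the list, at 1152 ± 165 RPKM with LCN2 and 707 ± 293 RPKM with GFP (SD, n = 4 each). The proteoglycan Dcn (decorin) followed at 116 ± 20.2 RPKM with LCN2 and 185 ± 78.0 RPKM with GFP, and the inhibitor Timp2 at 90.6 ± 19.1 RPKM with LCN2 and 119 ± 38.5 RPKM with GFP. Among the enzymes, Loxl1 stood at 36.6 ± 2.53 RPKM with LCN2 and 26.5 ± 9.74 RPKM with GFP, and Adamts5 at 37.0 ± 10.1 RPKM with LCN2 and 28.2 ± 14.4 RPKM with GFP. The collagenase gene Mmp13 was lowest, at 0.262 ± 0.161 RPKM with LCN2 and 0.154 ± 0.106 RPKM with GFP. Sparc alone took 0.437% of all reads with LCN2 and 0.268% with GFP on average, and all 36 genes together took 0.940%, 1.05%, 0.751% and 0.959% of reads in the 4 LCN2 samples, against 0.775%, 0.590%, 0.549% and 1.30% in the 4 GFP samples. The GFP samples held both the lowest and the highest of these sums, so the groups overlapped.

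**Figure D1:**
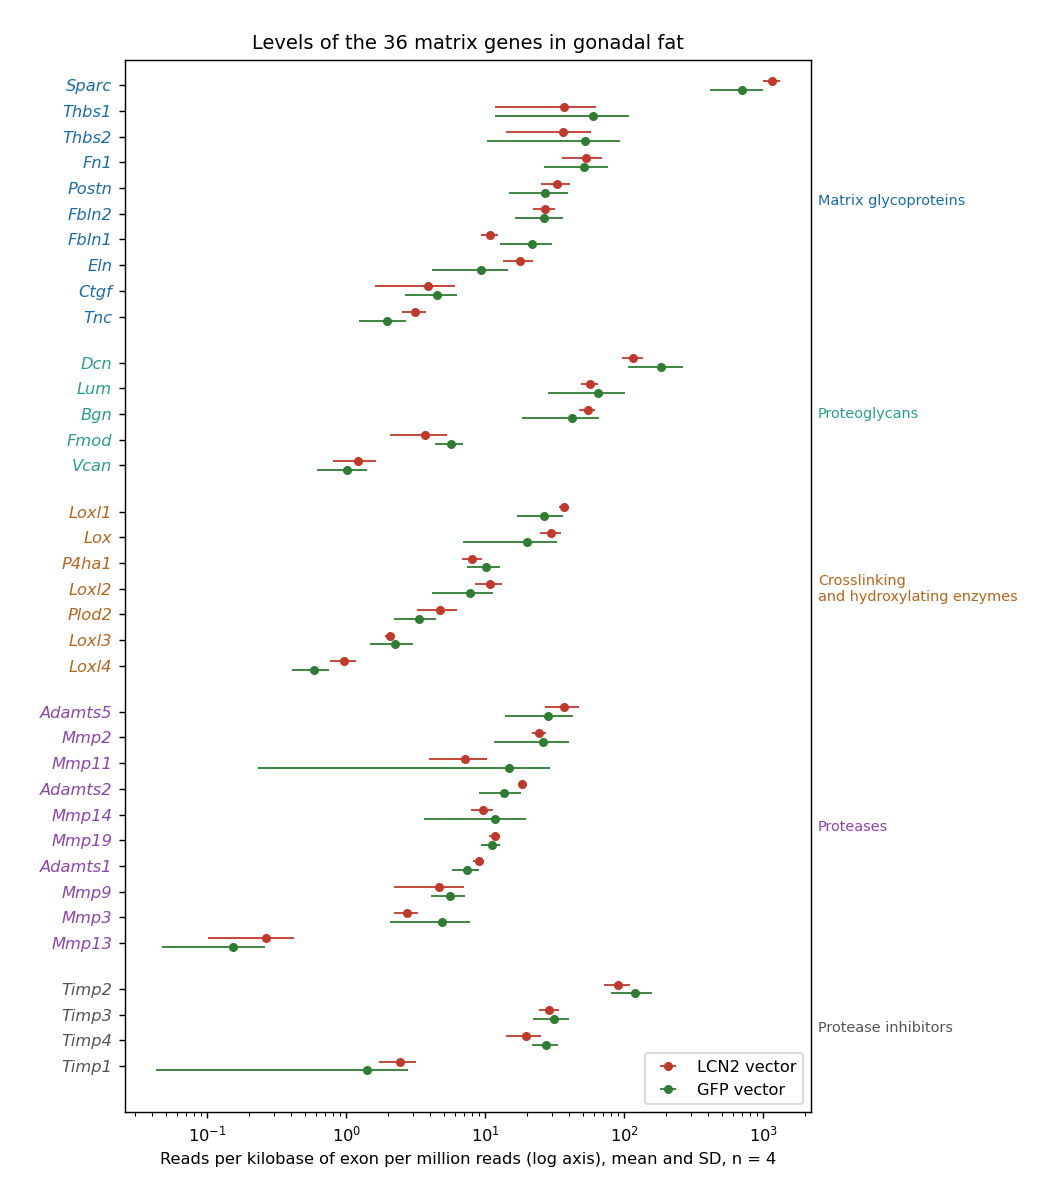
Levels of the 36 genes in gonadal fat in RPKM (reads scaled to exon length and library size), on a log axis, as mean and SD of 4 samples per vector, ordered by role and level. Sparc, with means of 1152 RPKM (LCN2) and 707 RPKM (GFP), lies far above every other gene, and the SD bars of the GFP group are wide for genes such as Mmp11 and Timp1.

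In gonadal fat no gene of the list passed the test (limma on log2 of the normalized count plus 1, adjusted p under 0.05 over 19536 genes). That test called 20 genes in all, which is 0.102% of those tested. The smallest adjusted p of the list was 0.129 (limma), for Fbln1. Differences, here and throughout LCN2 minus GFP on a log2 scale, were above 0 for 20 genes and below 0 for 16, with a median of 0.09, against a median of 0.01 and 52.0% above 0 over all genes tested. An unadjusted p under 0.05 was reached by 9 genes with a positive and 4 with a negative difference, beside 7.44% and 7.38% of all genes. The 4 LCN2 samples lay entirely above the 4 GFP samples for Sparc and entirely below them for Fbln1, beside 4.40% and 4.71% of all genes. DESeq2, run on the recovered reads, called Sparc and Eln higher and Fbln1 lower, and it called 2.33% of all genes higher and 1.96% lower, or 4.29% together. Run on the same reads, edgeR called none of the 36 and 0.0358% of all genes.

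In subcutaneous fat no gene of the list, and no gene of the 20302 tested, passed the test (limma on rlog values, 0% of genes called). The smallest adjusted p over all genes was 0.315 (limma). The difference was above 0 for 35 of the 36 genes and below 0 for Fmod, with a median of 0.28, against a median of -0.00 and 49.8% above 0 over all genes tested. An unadjusted p under 0.05 was reached by 11 genes, all with a positive difference, beside 7.71% of all genes in that direction and 6.31% in the other. For 6 genes, namely Sparc, Fbln2, Bgn, Adamts1, Adamts2 and Adamts5, every LCN2 sample lay above every GFP sample, beside 3.81% of all genes. Values without the libraries rich in lymphocyte transcripts were smaller. Without GFP replicates 1 and 2 the difference was above 0 for 27 genes and below 0 for 9, with a median of 0.11, and 5 genes had an unadjusted p under 0.05, beside 4.6% of all genes without those samples. Without GFP replicate 1 alone, 28 were above 0 and the median was 0.16. Without the 3 libraries highest in lymphocyte markers, a choice made after the data were seen, 29 were above 0 and the median was 0.15.

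**Figure D2:**
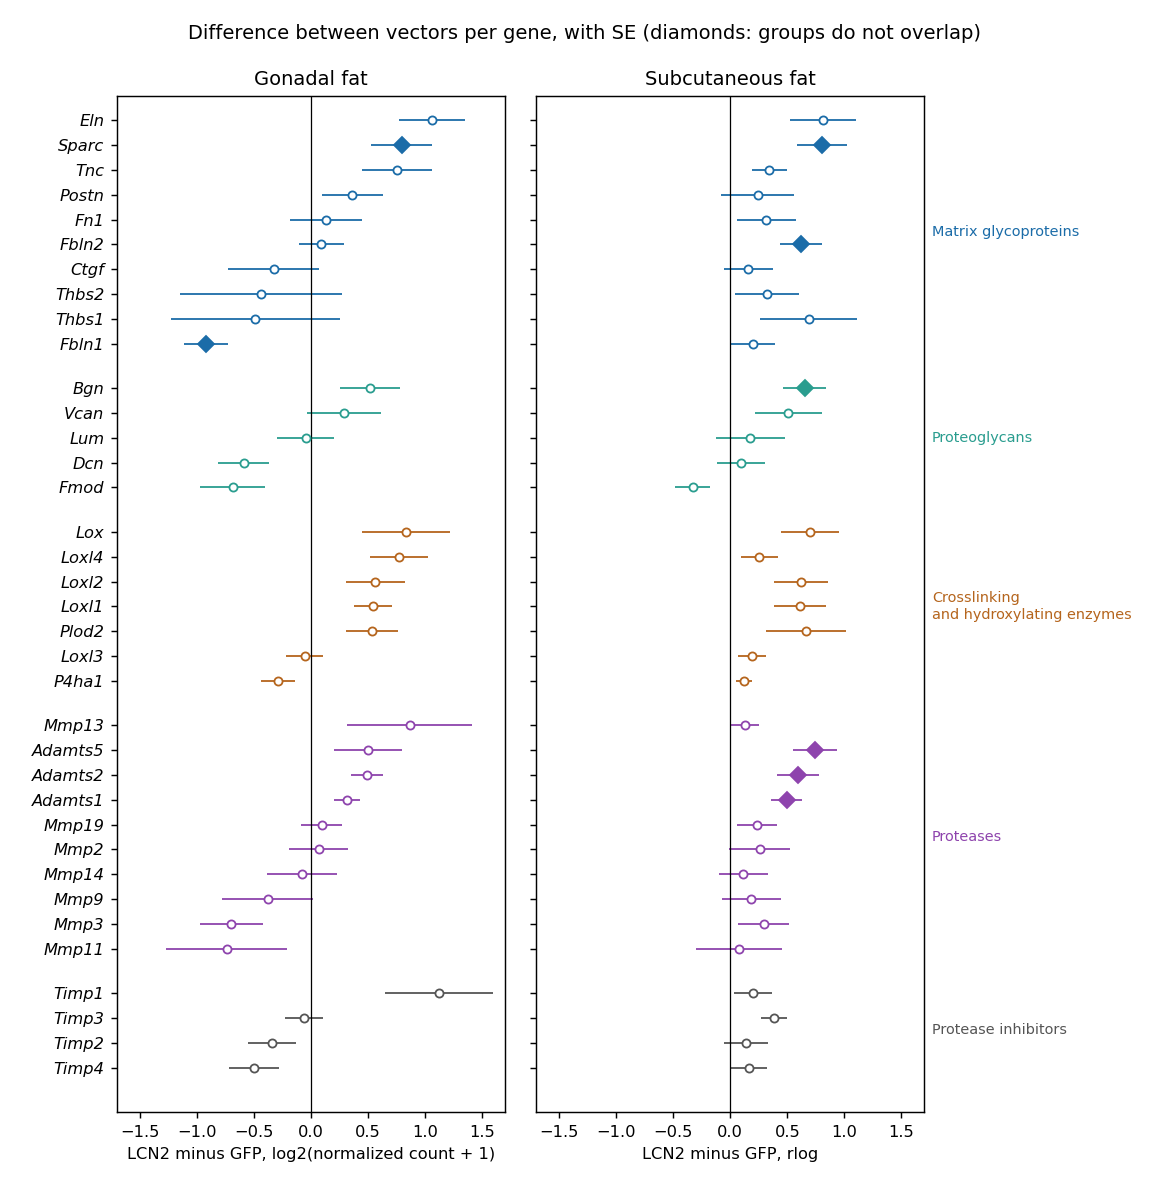
Difference between vectors for each gene, LCN2 minus GFP, on the log2(normalized count + 1) scale in gonadal fat (left) and on the rlog scale in subcutaneous fat (right), with SE bars from limma. Filled diamonds mark genes whose groups of 4 samples did not overlap, which are Sparc and Fbln1 on the left and 6 genes on the right, where Fmod alone lies below 0.

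For the 7 genes whose groups did not overlap in a depot, promoter windows were looked up in RefSeq (build GRCm38.p6). Each window runs from 250 bases before to 50 bases after a start of transcription, 5′ to 3′ on the gene's strand. A window was found for Sparc, Fbln1 (the first of 2 is shown), Fbln2, Bgn, Adamts1 and Adamts2, and the other gene is Adamts5. The windows are shown to put the sequence beside the values that follow. Capitals mark the motifs searched, on either strand and with overlaps kept. They are the TATA box TATAAA, the GC box GGGCGG, the AP-1 site TGANTCA, the TEAD site GGAATG and the SMAD box CAGAC.
Sparc, chr11:55420031-55420330, minus strand: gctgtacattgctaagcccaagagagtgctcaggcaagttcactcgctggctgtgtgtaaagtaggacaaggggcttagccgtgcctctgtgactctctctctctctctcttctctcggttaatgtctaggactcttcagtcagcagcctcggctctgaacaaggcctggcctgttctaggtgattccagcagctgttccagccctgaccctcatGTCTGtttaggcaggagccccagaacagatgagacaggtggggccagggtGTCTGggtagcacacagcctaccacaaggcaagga
Fbln1, chr15:85205699-85205998, plus strand: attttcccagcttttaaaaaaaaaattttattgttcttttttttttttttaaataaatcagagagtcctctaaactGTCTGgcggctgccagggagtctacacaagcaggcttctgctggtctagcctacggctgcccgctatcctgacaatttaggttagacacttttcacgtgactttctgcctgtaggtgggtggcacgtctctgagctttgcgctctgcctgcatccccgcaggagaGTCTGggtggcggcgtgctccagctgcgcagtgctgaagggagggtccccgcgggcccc
Fbln2, chr6:91212514-91212813, plus strand: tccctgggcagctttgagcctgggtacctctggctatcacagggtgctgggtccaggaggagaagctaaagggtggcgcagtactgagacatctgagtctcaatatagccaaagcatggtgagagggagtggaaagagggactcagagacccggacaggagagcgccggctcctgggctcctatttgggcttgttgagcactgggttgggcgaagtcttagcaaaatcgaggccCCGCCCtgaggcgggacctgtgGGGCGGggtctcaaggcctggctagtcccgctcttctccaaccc
Bgn, chrX:73483351-73483650, plus strand: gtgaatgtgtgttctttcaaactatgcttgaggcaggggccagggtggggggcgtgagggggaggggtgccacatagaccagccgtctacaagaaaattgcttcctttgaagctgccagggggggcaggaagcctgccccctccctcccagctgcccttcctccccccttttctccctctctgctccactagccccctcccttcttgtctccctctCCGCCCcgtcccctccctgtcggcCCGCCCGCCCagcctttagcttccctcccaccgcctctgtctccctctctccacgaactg
Adamts1, chr16:85803064-85803363, minus strand: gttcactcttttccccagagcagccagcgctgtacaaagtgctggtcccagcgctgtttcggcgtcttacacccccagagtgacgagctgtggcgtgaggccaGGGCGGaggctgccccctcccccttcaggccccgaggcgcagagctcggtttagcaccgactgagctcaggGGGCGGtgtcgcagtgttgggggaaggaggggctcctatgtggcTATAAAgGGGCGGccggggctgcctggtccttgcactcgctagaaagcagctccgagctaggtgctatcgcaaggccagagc
Adamts2, chr11:50601835-50602134, plus strand: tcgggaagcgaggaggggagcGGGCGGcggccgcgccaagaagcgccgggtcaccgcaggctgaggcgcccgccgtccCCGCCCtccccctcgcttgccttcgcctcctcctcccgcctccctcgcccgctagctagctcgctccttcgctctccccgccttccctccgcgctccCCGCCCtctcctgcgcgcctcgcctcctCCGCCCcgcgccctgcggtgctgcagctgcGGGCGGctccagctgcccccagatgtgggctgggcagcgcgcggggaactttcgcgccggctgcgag
The window of Adamts1 held a TATA box whose first base lies 32 bases before the start, with 3 GC boxes. Adamts2, Bgn and Fbln2 held 5, 3 and 2 GC boxes and no TATA box. The Sparc window and the Fbln1 window shown each held 2 SMAD boxes and no GC box. The other Fbln1 window, which overlaps the one shown, held 2 GC boxes beside its 2 SMAD boxes. The RefSeq start used for Sparc lies inside the gene's Ensembl span. Of 32851 promoter windows, 13.6% held a TATA box, 35.7% a GC box, 7.81% an AP-1 site, 14.7% a TEAD site and 49.6% a SMAD box. Of the 21 listed genes with a window, which had 24 windows, 7 held a TATA box in at least 1 window and 14 a GC box. An AP-1 site was held by 2 (Mmp3 and Mmp13), a TEAD site by 1 (Timp1) and a SMAD box by 9. These counts are per gene, while the shares above are per window. A TATA match could lie anywhere in a window, such as 39 bases after the start for P4ha1. A match describes letters in the window and says nothing of binding.

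Among the matrix glycoproteins, Sparc had the larger values with LCN2 in both depots, Eln (elastin, the core of elastic fibres) had positive differences in both, and Fbln1 (fibulin-1, a binding partner of fibronectin and elastic fibres) was the one gene whose gonadal groups separated downward. Of the 10 genes, 6 had a gonadal difference above 0, with a role median of 0.11, and all 10 had a subcutaneous difference above 0, with a role median of 0.33. The subcutaneous count and median include GFP replicates 1 and 2, and without them Postn (-0.22) and Fbln1 (-0.00) were below 0.

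Sparc (chromosome 11, 55394500 to 55423183, minus strand, GRCm38) had gonadal normalized counts of 151937, 187039, 148030 and 172064 with LCN2, against 100427, 61572, 94662 and 136506 with GFP. All LCN2 values lay above all GFP values, and GFP replicate 4 came nearest to them. On the log2 scale the difference was 0.79 ± 0.27 (SE), with an adjusted p of 0.225 in limma and 0.0327 in DESeq2. Leaving out single samples gave between 0.59 (without GFP replicate 2) and 0.97 (without GFP replicate 4). In subcutaneous fat Sparc had rlog values of 16.72, 17.23, 17.15 and 16.63 with LCN2, against 15.94, 15.65, 16.50 and 16.41 with GFP. The groups again did not overlap. The rlog difference was 0.80 ± 0.22 (SE, limma adjusted p 0.315), and 0.47 without GFP replicates 1 and 2.

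Fbln1 (chromosome 15, 85205949 to 85286535, plus strand) had gonadal normalized counts of 2122, 1773, 1778 and 1458 with LCN2, against 3376, 2940, 2610 and 4836 with GFP. Every LCN2 sample was below the lowest GFP sample, and the highest GFP value was again replicate 4. The gonadal difference was -0.92 ± 0.19 (SE), with an adjusted p of 0.129 in limma, 0.00124 in DESeq2 and 0.165 in edgeR. It lay between -1.04 and -0.74 when single samples were left out. Mesothelial markers were lower with LCN2 in the same samples. All 12 of 12 such markers had a difference below 0, with a median of -1.23, and they summed to between 0.0126% and 0.0278% of reads with LCN2 and between 0.0239% and 0.0572% with GFP. None of these markers was at 0 reads in any sample, and their part in the Fbln1 values was not tested. In subcutaneous fat Fbln1 had rlog values of 9.57, 8.95, 9.61 and 9.33 with LCN2, against 8.70, 9.24, 9.51 and 9.23 with GFP. These overlapped, with a difference of 0.20 ± 0.20 (SE), and -0.00 without GFP replicates 1 and 2.

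Eln (chromosome 5, 134702593 to 134747323, minus strand) had gonadal normalized counts of 7321, 5303, 4789 and 4259 with LCN2, against 2791, 1643, 2081 and 4376 with GFP. The groups overlapped only through GFP replicate 4, which exceeded LCN2 replicate 4. The log2 difference was 1.06 ± 0.29 (SE), with an adjusted p of 0.181 in limma and 0.0350 in DESeq2. In subcutaneous fat Eln had rlog values of 12.39, 11.90, 11.92 and 11.48 with LCN2, against 10.92, 10.69, 10.90 and 11.92 with GFP. Here too GFP replicate 4 was the sample that reached into the LCN2 range. The difference was 0.81 ± 0.29 (SE), and 0.51 without GFP replicates 1 and 2.

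Fbln2, the fibulin-2 gene, showed its separation in subcutaneous fat, where rlog values were 12.38, 12.26, 12.31 and 12.24 with LCN2, against 11.27, 11.39, 11.88 and 12.16 with GFP. The LCN2 samples were closely grouped and all above the GFP samples. The difference was 0.62 ± 0.19 (SE, limma adjusted p 0.315), and 0.27 without GFP replicates 1 and 2. In gonadal fat Fbln2 averaged 6409 ± 962 normalized counts with LCN2 and 6137 ± 1657 with GFP (SD, n = 4 each), a log2 difference of 0.09 ± 0.20 (SE). Tnc (tenascin-C, a glycoprotein of remodelling tissue) had gonadal counts of 1094, 661, 1077 and 851 with LCN2, against 793, 283, 661 and 550 with GFP. The ranges overlapped, with a log2 difference of 0.75 ± 0.31 (SE), which became 0.45 without GFP replicate 2. In subcutaneous fat the Tnc difference was 0.34 ± 0.15 (SE), and 0.33 without GFP replicates 1 and 2.

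Thbs1 and Thbs2, which encode thrombospondins that regulate cell adhesion and vessel growth, had the largest SE of the list in gonadal fat. In gonadal fat Thbs1 had normalized counts of 16467, 6661, 2578 and 8130 with LCN2, against 13627, 10902, 2444 and 24573 with GFP. Thbs2 had 14656, 7519, 2278 and 13202 with LCN2, against 11490, 11685, 3345 and 24996 with GFP. In both genes replicate 3 of either vector was lowest and GFP replicate 4 was highest, so the spread within a vector exceeded the distance between vectors. The log2 differences were -0.49 ± 0.74 (SE) for Thbs1 and -0.44 ± 0.71 for Thbs2, and they moved widely with single samples. Without LCN2 replicate 3 they were -0.01 for Thbs1 and 0.14 for Thbs2, and without GFP replicate 3 they were -1.15 and -0.98. In subcutaneous fat they were 0.69 ± 0.42 and 0.32 ± 0.28, and 0.44 and 0.17 without GFP replicates 1 and 2.

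The remaining glycoproteins did not separate in either depot. Fn1 (fibronectin) averaged 23237 ± 7134 normalized counts with LCN2 and 21732 ± 8347 with GFP in gonadal fat (SD, n = 4 each), a log2 difference of 0.13 ± 0.32 (SE) that became -0.11 without GFP replicate 3. Postn (periostin, a collagen-binding matricellular protein) averaged 10877 ± 2645 with LCN2 and 8614 ± 3000 with GFP, a difference of 0.36 ± 0.26. Ctgf, a secreted growth factor-binding protein, averaged 411 ± 228 with LCN2 and 467 ± 138 with GFP, a difference of -0.33 ± 0.40. Their rlog differences in subcutaneous fat were 0.32 ± 0.26 for Fn1, 0.24 ± 0.32 for Postn and 0.16 ± 0.22 for Ctgf, and without GFP replicates 1 and 2 they were 0.11, -0.22 and 0.10. Of the exonic bases of Ctgf, 23.2% are shared with a predicted gene on the opposite strand, and the strand setting of the counting is not given in the sources used here.

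The proteoglycans split. Bgn (biglycan) had positive differences in both depots and separated in subcutaneous fat, while Dcn and Fmod (fibromodulin), which bind collagen fibrils and shape their width, had negative differences in gonadal fat. The role median was -0.05 in gonadal fat, with 2 of 5 genes above 0, and 0.18 in subcutaneous fat, with 4 of 5 above 0. The subcutaneous count and median include GFP replicates 1 and 2, and without them Dcn (-0.10) and Lum (-0.19) were also below 0.

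Bgn had subcutaneous rlog values of 13.54, 13.40, 13.59 and 13.43 with LCN2, against 12.67, 12.40, 12.89 and 13.39 with GFP. The groups did not overlap, though GFP replicate 4 lay within 0.1 of the lowest LCN2 sample. The difference was 0.65 ± 0.19 (SE, limma adjusted p 0.315), and 0.35 without GFP replicates 1 and 2. In gonadal fat Bgn had 10987, 14006, 11821 and 13246 normalized counts with LCN2, against 9339, 6432, 6323 and 15090 with GFP. Only GFP replicate 4, the highest sample of all, lay within or above the LCN2 range. On the log2 scale the difference was 0.52 ± 0.26 (SE), and 0.78 without that sample.

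Dcn, the decorin gene, had gonadal normalized counts of 27102, 28362, 20114 and 26601 with LCN2, against 36063, 38757, 27024 and 56144 with GFP. The lowest GFP sample, replicate 3, fell within the LCN2 range and the other GFP samples lay above it. The gonadal difference was -0.59 ± 0.22 (SE, limma adjusted p 0.268; DESeq2 adjusted p 0.0844). In subcutaneous fat Dcn averaged 14.23 ± 0.31 rlog with LCN2 and 14.14 ± 0.37 with GFP (SD, n = 4 each), a difference of 0.09 ± 0.21 (SE) that became -0.10 without GFP replicates 1 and 2.

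Fmod had gonadal counts of 245, 693, 382 and 498 with LCN2, against 777, 675, 548 and 760 with GFP. LCN2 replicate 2 lay among the GFP samples and the other LCN2 samples lay below all of them. The log2 difference was -0.69 ± 0.28 (SE). In subcutaneous fat Fmod had rlog values of 7.88, 7.60, 7.51 and 7.56 with LCN2, against 8.35, 7.81, 7.65 and 8.04 with GFP, which overlapped. The difference was -0.33 ± 0.15 (SE), the one negative value of the list in that depot, and it stayed below 0 whichever sample was left out (-0.43 to -0.20) and without GFP replicates 1 and 2 (-0.21).

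Lum (lumican, another collagen-binding proteoglycan) averaged 5248 ± 642 normalized counts with LCN2 and 5734 ± 2510 with GFP in gonadal fat (SD, n = 4 each), a difference of -0.05 ± 0.25 (SE) that became 0.22 without GFP replicate 4. In subcutaneous fat the Lum difference was 0.18 ± 0.30, and -0.19 without GFP replicates 1 and 2. Vcan (versican, a large hyaluronan-binding proteoglycan) had differences of 0.29 ± 0.32 in gonadal and 0.51 ± 0.30 in subcutaneous fat, the second of which became 0.15 without GFP replicates 1 and 2. Neither gene separated in either depot.

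**Figure D3:**
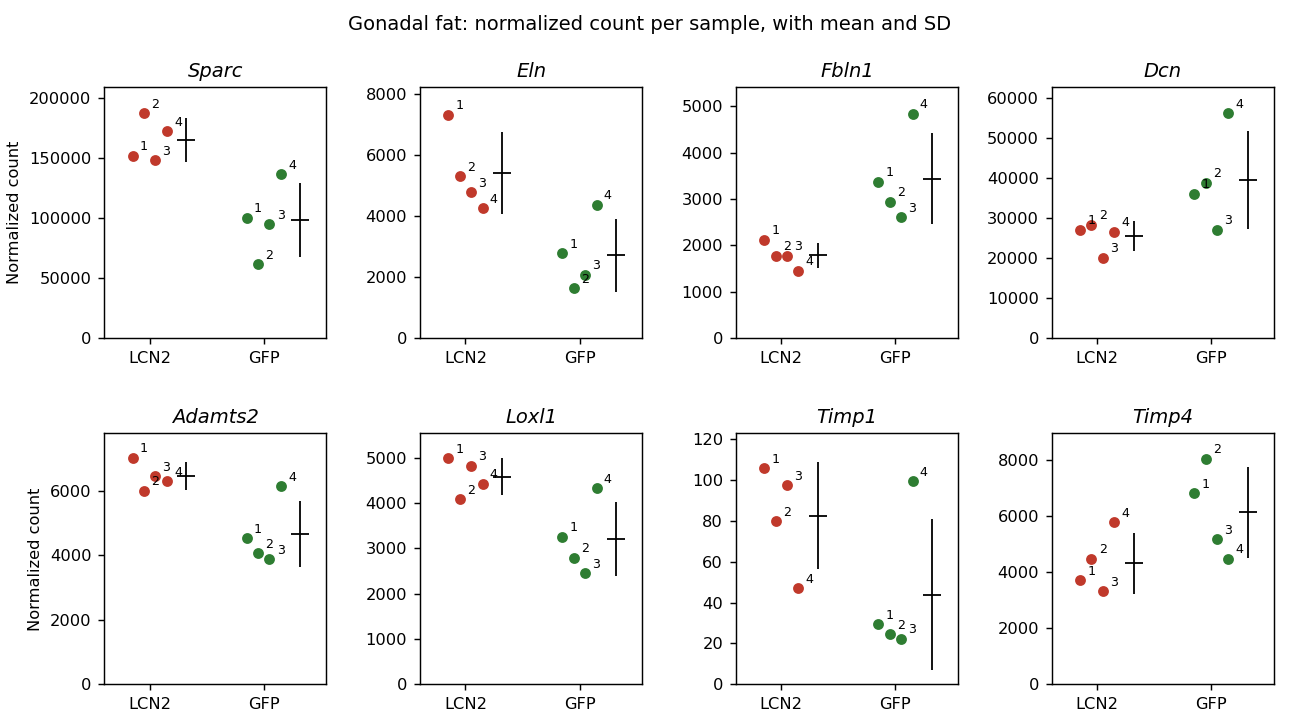
Normalized counts of 8 genes in each gonadal sample, with the replicate number beside each point and the mean and SD of 4 samples in black. Sparc and Fbln1 do not overlap between vectors (Fbln1 between 1458 and 2122 with LCN2, between 2610 and 4836 with GFP), and GFP replicate 4 is the highest GFP sample for every gene shown except Timp4.

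The crosslinking and hydroxylating enzymes had the largest role medians in both depots, 0.54 in gonadal fat with 5 of 7 genes above 0 and 0.61 in subcutaneous fat with 7 of 7 above 0. Loxl1 held the median value in both depots. The subcutaneous count and median include GFP replicates 1 and 2, and without them the Loxl1 difference was 0.26. Loxl1, which crosslinks elastin, averaged 4580 ± 408 normalized counts with LCN2 and 3208 ± 813 with GFP in gonadal fat (SD, n = 4 each). None of the 7 passed the limma test in either depot or was called by DESeq2 or edgeR in gonadal fat, and none separated. An unadjusted p under 0.05 was reached by 3 of them in each depot, all with positive differences, beside 7.44% of all genes in gonadal and 7.71% in subcutaneous fat. They were Loxl1, Loxl4 and Plod2 in gonadal fat and Lox, Loxl1 and Loxl2 in subcutaneous fat, so only Loxl1 was shared.

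Loxl1 had 4993, 4084, 4821 and 4421 normalized counts with LCN2, against 3259, 2796, 2455 and 4323 with GFP in gonadal fat. GFP replicate 4 was the one GFP sample within the LCN2 range. On the log2 scale the difference was 0.54 ± 0.17 (SE, limma adjusted p 0.203; DESeq2 adjusted p 0.0915). In subcutaneous fat it had rlog values of 12.22, 11.64, 12.32 and 11.93 with LCN2, against 10.92, 11.21, 11.80 and 11.73 with GFP. LCN2 replicate 2 lay among the GFP samples. The difference was 0.61 ± 0.23 (SE), and 0.26 without GFP replicates 1 and 2.

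Lox, which encodes lysyl oxidase itself and lies on chromosome 18, had gonadal normalized counts of 6385, 5564, 4284 and 5334 with LCN2, against 4670, 1976, 1579 and 5544 with GFP. The GFP group spanned more than the LCN2 group, and its replicates 2 and 3 lay below every other sample. The gonadal difference was 0.83 ± 0.39 (SE). In subcutaneous fat Lox had rlog values of 12.93, 12.91, 12.52 and 12.34 with LCN2, against 12.20, 11.47, 11.65 and 12.58 with GFP. One GFP sample, replicate 4, lay above the lower LCN2 samples. The difference was 0.70 ± 0.26 (SE), and 0.56 without GFP replicates 1 and 2.

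Loxl4 was the least abundant enzyme of this role, with 108, 168, 170 and 171 normalized counts with LCN2, against 112, 54.9, 103 and 96.1 with GFP. Replicate 1 of the LCN2 group lay among the GFP samples and the other LCN2 samples above them. The log2 difference was 0.77 ± 0.25 (SE, limma adjusted p 0.221), which was 0.71 with LCN2 replicate 4 left out, 0.55 with GFP replicate 2 left out and 0.49 with neither sample. The subcutaneous Loxl4 difference was 0.25 ± 0.16, and 0.11 without GFP replicates 1 and 2.

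Loxl2, a crosslinking enzyme of basement membrane collagen, had differences of 0.56 ± 0.26 (SE) in gonadal and 0.62 ± 0.24 in subcutaneous fat, and 0.28 in the second without GFP replicates 1 and 2. Plod2, a lysyl hydroxylase that prepares collagen for crosslinking, had differences of 0.53 ± 0.23 and 0.66 ± 0.35, and in both depots LCN2 replicate 1 was its highest sample. Without that sample the Plod2 differences were 0.33 in gonadal and 0.35 in subcutaneous fat, where the value was 0.34 without GFP replicates 1 and 2. Loxl3 averaged 359 ± 31.5 normalized counts with LCN2 and 379 ± 88.0 with GFP in gonadal fat (SD, n = 4 each), a difference of -0.06 ± 0.16. P4ha1, the catalytic subunit of a prolyl hydroxylase that stabilizes the collagen helix, averaged 1257 ± 199 with LCN2 and 1538 ± 263 with GFP, a difference of -0.29 ± 0.15. In subcutaneous fat these last genes had small positive differences, 0.19 ± 0.12 for Loxl3 and 0.12 ± 0.07 for P4ha1, which were 0.01 and 0.05 without GFP replicates 1 and 2.

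Among the proteases, the 3 ADAMTS genes of the list had positive differences in both depots and separated in subcutaneous fat. The MMP genes had differences of both signs in gonadal fat and positive ones in subcutaneous fat, and whether the families differ was not tested. None of the ADAMTS genes of the further protease list separated in subcutaneous fat. The role median was 0.08 in gonadal fat, with 6 of 10 genes above 0, and 0.25 in subcutaneous fat, with 10 of 10 above 0. The subcutaneous count and median include GFP replicates 1 and 2, and without them Mmp9 (-0.05), Mmp11 (-0.08) and Mmp14 (-0.17) were below 0.

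Adamts5, which encodes a proteoglycan-cleaving aggrecanase (chromosome 16, 85856173 to 85901828, minus strand), had subcutaneous rlog values of 13.64, 13.99, 13.65 and 13.70 with LCN2, against 12.84, 12.52, 13.22 and 13.44 with GFP. All LCN2 samples lay above all GFP samples. The difference was 0.74 ± 0.19 (SE, limma adjusted p 0.315), and 0.42 without GFP replicates 1 and 2. In gonadal fat Adamts5 had normalized counts of 12162, 16788, 11908 and 19238 with LCN2, against 13362, 6827, 7790 and 16424 with GFP. The groups overlapped, with a log2 difference of 0.50 ± 0.30 (SE), which was 0.37 with LCN2 replicate 4 left out, 0.30 with GFP replicate 2 left out and 0.17 with neither sample.

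Adamts2, the protease that removes the amino-terminal propeptide of fibrillar procollagens (chromosome 11, 50602084 to 50807573, plus strand), had gonadal normalized counts of 7030, 5999, 6459 and 6289 with LCN2, against 4534, 4063, 3881 and 6137 with GFP. Only GFP replicate 4 reached into the LCN2 range. On the log2 scale the difference was 0.49 ± 0.14 (SE), with an adjusted p of 0.191 in limma. Samples were left out in turn, and without GFP replicate 4 the difference was 0.63, with an adjusted p of 0.0446 (limma). That step removed the only overlapping sample, so its p cannot serve as support. It also raised the genes called over the whole table from 20 to 66. In subcutaneous fat Adamts2 had rlog values of 12.80, 12.46, 12.93 and 12.50 with LCN2, against 11.64, 11.98, 12.36 and 12.35 with GFP. These did not overlap, and the difference was 0.59 ± 0.18 (SE), or 0.32 without GFP replicates 1 and 2.

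Adamts1, another proteoglycan-cleaving member of the family (chromosome 16, 85793827 to 85803113, minus strand), had subcutaneous rlog values of 10.35, 10.65, 10.49 and 10.26 with LCN2, against 9.99, 9.58, 10.13 and 10.07 with GFP. These groups did not overlap either. The difference was 0.50 ± 0.14 (SE), and 0.34 without GFP replicates 1 and 2. In gonadal fat Adamts1 had 1600, 1874, 1986 and 1732 normalized counts with LCN2, against 1593, 1225, 1355 and 1637 with GFP. GFP replicate 4 alone exceeded an LCN2 sample. The gonadal difference was 0.31 ± 0.11 (SE, limma adjusted p 0.256).

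Of the MMP genes, Mmp3 (stromelysin-1) had the most negative difference relative to its error in gonadal fat. Its normalized counts were 165, 177, 252 and 156 with LCN2, against 268, 237, 238 and 537 with GFP. LCN2 replicate 3 fell within the GFP range, and GFP replicate 4 lay far above the rest. The log2 difference was -0.70 ± 0.28 (SE), and -0.42 without GFP replicate 4. In subcutaneous fat the Mmp3 difference was 0.29 ± 0.22, and 0.03 without GFP replicates 1 and 2.

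Mmp11 (stromelysin-3) had gonadal counts of 698, 840, 339 and 1092 with LCN2, against 1045, 803, 615 and 3270 with GFP. GFP replicate 4 was by far the highest sample, and the log2 difference was -0.74 ± 0.53 (SE) with it and -0.23 without it. Mmp13 was near the lower end of detection, with 18.7, 49.4, 15.9 and 21.1 normalized counts with LCN2, against 13.7, 4.07, 15.9 and 25.7 with GFP. Its difference was 0.86 ± 0.54, and 0.39 without GFP replicate 2, the sample with the fewest reads of the gene.

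The gelatinase gene Mmp2 and its membrane-bound activator Mmp14 had gonadal differences of 0.07 ± 0.26 and -0.08 ± 0.31 (SE), and Mmp2 turned below 0 (-0.03) in DESeq2. The other gelatinase gene, Mmp9, had -0.38 ± 0.39, and Mmp19 had 0.09 ± 0.18. In subcutaneous fat the differences were 0.26 ± 0.27 for Mmp2, 0.12 ± 0.21 for Mmp14, 0.18 ± 0.26 for Mmp9, 0.24 ± 0.17 for Mmp19, 0.08 ± 0.38 for Mmp11 and 0.13 ± 0.13 for Mmp13. Each of these was smaller than 2 times its SE. Without GFP replicates 1 and 2 they were 0.00 for Mmp2, -0.17 for Mmp14, -0.05 for Mmp9, 0.16 for Mmp19, -0.08 for Mmp11 and 0.04 for Mmp13. Of the exonic bases of Mmp19, 28.3% are shared with genes on the opposite strand.

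The TIMP genes had a negative role median in gonadal fat, -0.20 with 1 of 4 genes above 0, and a positive one in subcutaneous fat, 0.18 with 4 of 4 above 0. The subcutaneous count and median include GFP replicates 1 and 2, and without them Timp1 (-0.00) was below 0 and Timp2 was at 0.01. Timp1, an inducible inhibitor and the least abundant of the family here, had gonadal normalized counts of 106, 79.7, 97.5 and 47.1 with LCN2, against 29.5, 24.4, 22.3 and 99.4 with GFP. GFP replicates 1 to 3 lay below every LCN2 sample and GFP replicate 4 lay near the top of the LCN2 range. On the log2 scale the difference was 1.12 ± 0.47 (SE, limma adjusted p 0.316), and 1.61 without GFP replicate 4. In subcutaneous fat Timp1 had rlog values of 5.87, 5.71, 5.69 and 5.33 with LCN2, against 5.31, 5.19, 5.86 and 5.45 with GFP, which overlapped, with a difference of 0.20 ± 0.16 (SE), and -0.00 without GFP replicates 1 and 2.

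Timp4, an inhibitor well expressed in fat, had gonadal counts of 3713, 4490, 3318 and 5789 with LCN2, against 6833, 8052, 5184 and 4483 with GFP. The groups overlapped, since LCN2 replicate 4 exceeded GFP replicates 3 and 4, and the log2 difference was -0.50 ± 0.22 (SE). Timp2, the most abundant TIMP gene per length, averaged 13338 ± 2709 normalized counts with LCN2 and 17070 ± 4067 with GFP in gonadal fat (SD, n = 4 each), a difference of -0.34 ± 0.21. Timp3, which encodes an inhibitor bound to the matrix, had a gonadal difference of -0.06 ± 0.17. In subcutaneous fat Timp3 had rlog values of 13.08, 13.22, 13.14 and 13.40 with LCN2, against 12.63, 12.70, 12.88 and 13.10 with GFP. The ranges overlapped by a narrow margin, between LCN2 replicate 1 and GFP replicate 4. The Timp3 difference there was 0.38 ± 0.12 (SE, limma adjusted p 0.315), and it was 0.22 without GFP replicates 1 and 2 and 0.16 without the 3 libraries highest in lymphocyte markers. Timp2 and Timp4 had subcutaneous differences of 0.14 ± 0.19 and 0.17 ± 0.15, which were 0.01 and 0.09 without GFP replicates 1 and 2. Of the exonic bases of Timp3, 21.3% are shared with Syn3 on the opposite strand.

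**Figure D4:**
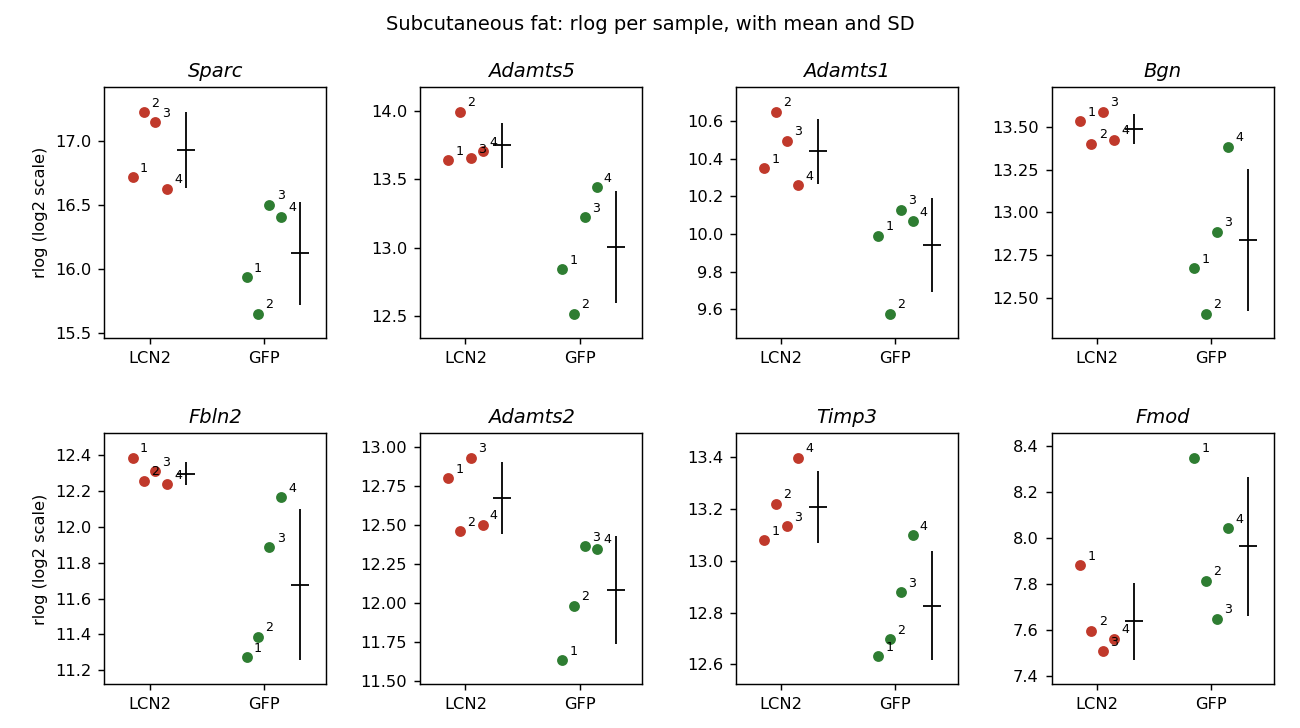
Rlog values (log2 scale) of 8 genes in each subcutaneous sample, with the replicate number beside each point and the mean and SD of 4 samples in black. The 6 genes from Sparc to Adamts2 do not overlap between vectors, with GFP replicates 1 and 2 at the bottom, while Timp3 and Fmod overlap.

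Single libraries were high or low for many of the 36 genes at once. In gonadal fat LCN2 replicate 1 was the highest of the 8 samples for 8 genes, GFP replicate 4 was the highest for 15, and GFP replicates 3 and 2 were the lowest for 13 and 9. Without GFP replicate 4 the gonadal median was 0.29, with 23 genes above 0, and without GFP replicate 3 it was -0.09, with 17 above 0. Leaving out the libraries with the highest medians of hepatocyte markers (LCN2 replicates 1 and 2 and GFP replicate 1) gave a median of -0.01 with 18 genes above 0, and leaving out those with the highest medians of muscle markers (LCN2 replicate 4 and, far below it, GFP replicate 2) gave 0.12 with 20 above 0. In subcutaneous fat LCN2 replicate 1 was highest for 16 genes, and GFP replicates 1 and 2 were lowest for 20 and 9. What set these libraries apart was not tested.

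**Figure D5:**
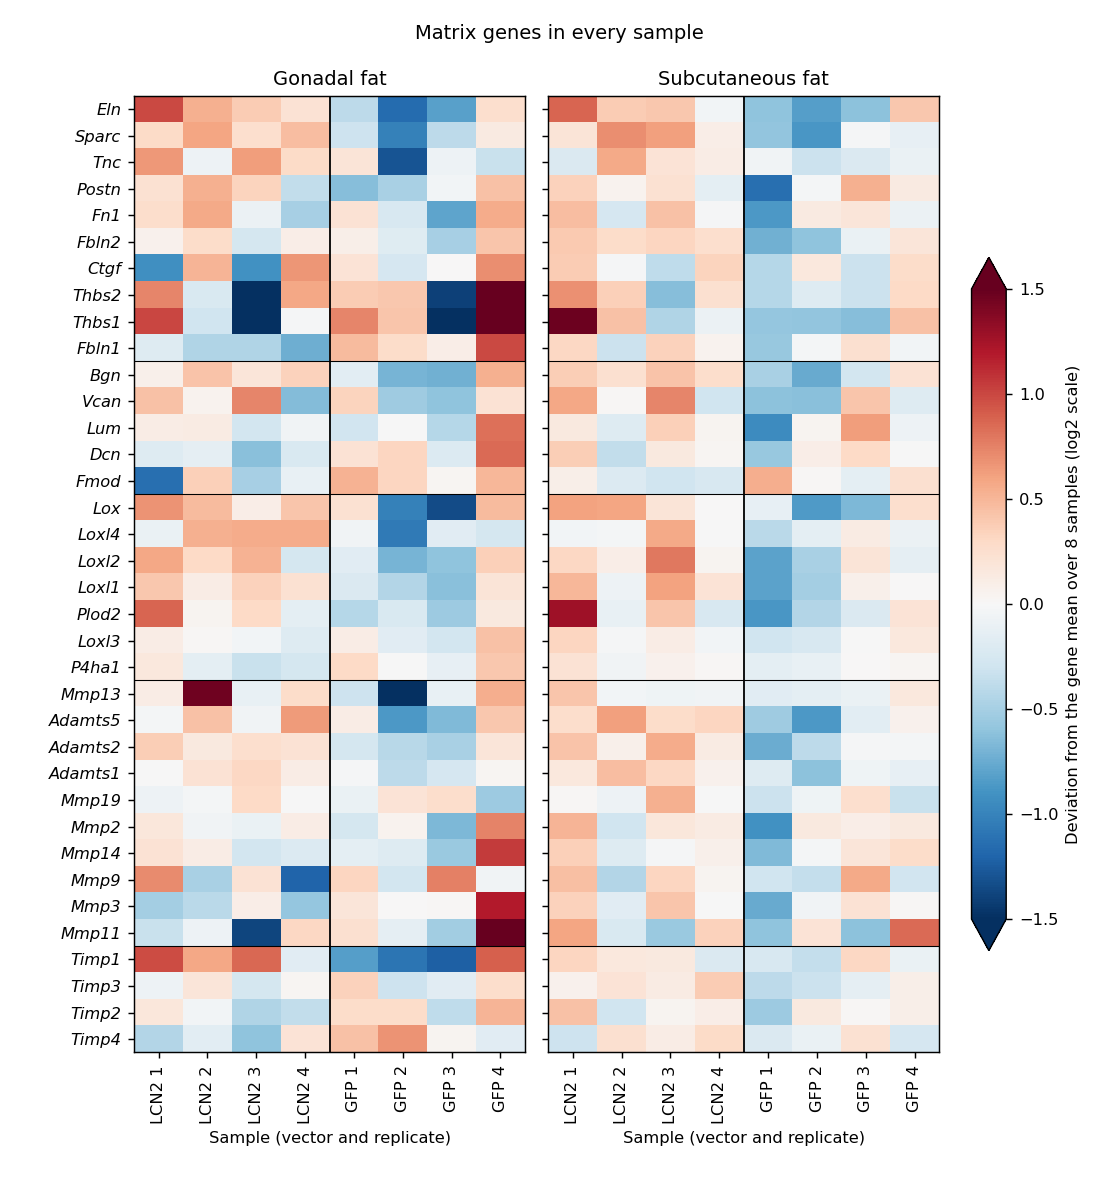
Deviation of each gene in each sample from its mean over the 8 samples of the depot, on a log2 scale, with colours limited at 1.5 either way and genes ordered by role. Gonadal GFP replicate 4 is highest for 15 of the 36 genes and subcutaneous GFP replicate 1 is lowest for 20.

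Markers of the cell types that express these genes were read in the same samples. Of 10 fibroblast markers 6 had a gonadal difference above 0, with a median of 0.17, and they summed to between 0.0867% and 0.107% of reads with LCN2 and between 0.0639% and 0.132% with GFP. All 8 endothelial markers were above 0, with a median of 0.43, as were 5 of 8 smooth muscle and pericyte markers, with a median of 0.35, and 6 of 8 macrophage markers, with a median of 0.08. In subcutaneous fat 8 of 10 fibroblast markers were above 0, with a median of 0.22, all 8 endothelial markers were above 0, with a median of 0.40, and all 8 smooth muscle and pericyte markers were above 0, with a median of 0.32, and 7 of 8 macrophage markers were above 0, with a median of 0.21. All 10 lymphocyte markers were below 0 there, with a median of -1.41. These subcutaneous counts include GFP replicates 1 and 2. By sample, smooth muscle and pericyte markers deviated from their means by medians of 0.20, 0.26, 0.04 and 0.13 with LCN2. With GFP these medians were -0.51, -0.44, -0.18 and 0.39. For endothelial markers they were 0.05, 0.35, 0.10 and 0.22 with LCN2 and -0.33, -0.50, -0.30 and 0.25 with GFP. For fibroblast markers they were 0.40, -0.26, 0.21 and 0.07 with LCN2 and -0.59, 0.03, -0.05 and 0.02 with GFP. No marker of these lists passed the limma test in its depot. In gonadal fat an unadjusted p under 0.05 was reached by 1 fibroblast marker above and 2 below 0, 3 endothelial and 2 smooth muscle or pericyte markers above 0, 8 mesothelial markers below 0 and 0 macrophage markers, beside 14.8% of all genes. DESeq2 called 8 mesothelial markers lower and 1 smooth muscle or pericyte marker higher there, beside 4.29% of all genes. In subcutaneous fat an unadjusted p under 0.05 was reached by 3 fibroblast, 5 endothelial, 2 smooth muscle or pericyte and 2 macrophage markers, all above 0, and by 0 lymphocyte markers, beside 14% of all genes. The part of these cell types in the matrix gene values was not tested.

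Set side by side, 20 of the 36 genes had a positive difference in both depots, beside 33.7% of all genes tested in both. These 20 were all the genes of the list with a positive gonadal difference, so the count restates the gonadal one. Of the others, 15 had a negative gonadal and a positive subcutaneous difference, and Fmod was negative in both. These counts include subcutaneous GFP replicates 1 and 2. Without them the subcutaneous difference was below 0 for Postn and Timp1 among the 20. It was also below 0 for Fbln1, Dcn, Lum, Mmp9, Mmp11 and Mmp14 among the 15. The sign was shared by 58.3% of the 36 genes and by 64.5% of the 19109 genes tested in both depots. Sparc had 0.79 in gonadal and 0.80 in subcutaneous fat, Eln 1.06 and 0.81, Loxl1 0.54 and 0.61, and Adamts2 0.49 and 0.59. Fbln1, Dcn and Mmp3 had negative gonadal values (-0.92, -0.59 and -0.70) and positive subcutaneous ones (0.20, 0.09 and 0.29), but without GFP replicates 1 and 2 the subcutaneous values were -0.00, -0.10 and 0.03. Whether a difference depends on the depot was not tested, since the tables are on separate scales.

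The rest of the matrix system was read from 6 further lists, and no gene in them passed the limma test in either depot. In gonadal fat the difference was above 0 for 26 of 38 other glycoproteins, 12 of the 19 tested among 22 other proteoglycans, 15 of 19 other collagen-modifying enzymes, 19 of the 28 tested among 31 other proteases, 6 of the 7 tested among 8 other protease inhibitors and 6 of 6 fibrillar collagen genes. Their medians were 0.12, 0.34, 0.20, 0.27, 0.71 and 0.84 in that order, and 4, 6, 8, 5, 4 and 4 genes had an unadjusted p under 0.05, beside 14.8% of all genes. DESeq2 called 2, 3, 3, 1, 2 and 2 genes of these lists, all higher with LCN2 except 1 proteoglycan gene, beside 4.29% of all genes. In subcutaneous fat the counts above 0 were 36 of 38, 14 of 19, 19 of 19, 22 of 28, 7 of 7 and 6 of 6, with medians of 0.33, 0.17, 0.31, 0.18, 0.48 and 0.76, and 15, 3, 6, 5, 5 and 2 genes had an unadjusted p under 0.05, beside 14% of all genes. These subcutaneous values include GFP replicates 1 and 2, which had the lowest median deviation from gene means in every list. In the same order the medians were -0.51, -0.44, -0.34, -0.36, -0.40 and -0.95 in GFP replicate 1. In GFP replicate 2 they were -0.23, -0.10, -0.22, -0.18, -0.25 and -0.66. Values without these replicates are not given for these lists.

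The gene with the smallest p in each direction was named from each of these lists. Col5a1, a collagen chain that starts fibril assembly, had 14043, 14660, 16932 and 14460 normalized counts with LCN2, against 10222, 6150, 8308 and 9902 with GFP in gonadal fat, and these did not overlap. Its log2 difference was 0.82 ± 0.16 (SE, limma adjusted p 0.111; DESeq2 adjusted p 0.000737). In subcutaneous fat the Col5a1 groups also did not overlap, with a difference of 0.80 ± 0.23, and GFP replicates 1 and 2 were the lowest samples. P4ha3, a low-abundance prolyl hydroxylase subunit, had 128, 58.5, 49.9 and 36.1 normalized counts with LCN2, against 13.7, 18.3, 4.24 and 18.2 with GFP, a log2 difference of 2.25 ± 0.51 (limma adjusted p 0.157; DESeq2 adjusted p 0.00159). All LCN2 values of P4ha3 lay above all GFP values.

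The other genes named in gonadal fat were Ltbp3 (0.53 ± 0.13), which anchors latent TGF-beta in the matrix, Gpc1 (1.25 ± 0.34), a cell surface heparan sulfate proteoglycan, Fap (0.55 ± 0.15), a fibroblast protease, and Serpinf1 (0.71 ± 0.17), a secreted serpin. On the negative side they were Lamb1 (-0.26 ± 0.13), Gpc3 (-0.54 ± 0.14), P3h4 (-0.51 ± 0.16), Mmp16 (-0.99 ± 0.28) and Reck (-0.40 ± 0.14). In subcutaneous fat they were Sparcl1 (0.51 ± 0.14), a relative of Sparc, Hspg2 (0.69 ± 0.20), the basement membrane proteoglycan perlecan, Pcolce2 (0.73 ± 0.23), an enhancer of procollagen processing, Mmp12 (1.29 ± 0.30), macrophage elastase, and Serping1 (0.48 ± 0.08), the complement C1 inhibitor. On the negative side stood Ltbp2 (-0.21 ± 0.17), Sdc4 (-0.17 ± 0.13) and Mmp25 (-0.63 ± 0.36). Errors here are SE, and limma gave each of these genes an adjusted p of at least 0.158. The subcutaneous values of the genes named from these lists include GFP replicates 1 and 2. Mmp25 had rlog values of 4.96, 4.84, 4.71 and 5.03 with LCN2, against 6.54, 5.79, 4.89 and 4.82 with GFP. It was highest in GFP replicates 1 and 2, which were rich in lymphocyte transcripts, and GFP replicates 3 and 4 lay within the LCN2 range.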

How the data were processed

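Per the labels' protocols, frozen fat gave RNA with integrity numbers above 8.2 for stranded mRNA libraries. The submitters' processing notes name HISAT2, DESeq2, GRCm38 and mm10. Not given in the sources used here are tool versions, the read counter, its strand option and the gene models. The authors' gonadal table holds a signal per gene, which is a read count over a sample's size factor. Scaled back, 100% of these values were whole within 1e-06, and these recovered reads gave the depths, RPKM values and count tests. A gene with 3 reads has between 0.0699 and 0.0853 CPM, which covers counting error only. The subcutaneous values, as deposited, are rlog, on a log2 scale that shrinks low genes towards their mean and understates their differences.

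The gonadal test was limma 3.58.1 (R 4.3.3), trended with intensity, on log2(normalized count + 1), for genes with a mean of at least 10, a scale that understates changes of low genes. The subcutaneous test was limma without a trend, for genes with a mean rlog of at least 3. P-values were adjusted by Benjamini-Hochberg over all genes of a depot, with a threshold of 0.05. Recovered reads were also tested with DESeq2 1.42.0 and edgeR 4.0.16. The limma tests were tried on simulated data, DESeq2 and edgeR were not. With 200 genes changed by 1 on the log2 scale, the gonadal test recovered 53%, and 9.40% of its calls were false. The subcutaneous test recovered 85%, and 3.95% of its calls were false. Genes varied independently in these simulations. Coordinates and exon lengths come from GENCODE vM21 on GRCm38, which matched 99.4% of identifiers in each table. No 2 libraries of a depot agreed within sampling noise in gonadal fat (mean chi-square per gene at least 45.8), and the SD of rlog differences between subcutaneous pairs was at least 0.198. The labels do not state that samples came from separate mice, so p-values reflect spread between samples that may be technical. The members, the further lists and the libraries left out were chosen with earlier results of these data known. Named genes are all members and, per further list and depot, the genes past the test or else the smallest p in each direction.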

Additional observations from a re-analysis of the deposited data

Results flagged for a closer look

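In 9 of 188 groups of 4 samples checked (4.79%, where chance gives about 1 in 20), 1 sample's gap to the others was above Dixon's limit as a share of the group's range. In gonadal fat, on the log2(normalized count + 1) scale, Loxl4 was 6.76 in LCN2 replicate 1, against 7.40 to 7.42 in the other LCN2 samples, and Mmp3 was 9.07 in GFP replicate 4, against 7.90 to 8.07 in the other GFP samples. The remaining flags are rlog values in subcutaneous fat. LCN2 replicate 3 was high for Loxl4 (7.06, others 6.45 to 6.48), Mmp19 (10.56, others 9.95 to 10.04) and Pcolce2 (11.69, others 10.89 to 11.01), and LCN2 replicate 1 was high for Mmp13 (4.60, others 4.12 to 4.14). In the GFP group Thbs1 was high in replicate 4 (12.85, others 11.77 to 11.83), Mmp9 was high in replicate 3 (9.09, others 8.16 to 8.23) and Mmp2 was low in replicate 1 (11.46, others 12.47 to 12.51).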

How the results depend on the processing

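In gonadal fat the 20 genes called over the whole table became 6 with library totals, 11 with a filter at a mean of 50, 6 without an intensity trend, 7 with edgeR and 818 with DESeq2. No gene was called by limma without the muscle libraries (1693 at an unadjusted p under 0.05) or without the hepatocyte libraries (1631). Leaving out 1 sample gave between 1 and 66 genes. Members called stayed at 0 in limma and edgeR under these settings, except 1 (Adamts2) without GFP replicate 4, so leaving out 1 sample gave between 0 and 1, and DESeq2 called 3. The cause of these shifts was not tested. The gonadal member median lay between -0.09 and 0.29 when 1 sample was left out and the subcutaneous one between 0.16 and 0.40. No setting called a gene in subcutaneous fat, where 2848 genes (14%) had an unadjusted p under 0.05 in limma. That number was 933 (4.6%) without GFP replicates 1 and 2 and 757 (3.73%) without the 3 libraries highest in lymphocyte markers. With sample quality weights in limma it was 5823 (28.7%). The fits without libraries also hold fewer samples.

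With the replicate number as a block, no gonadal gene was called by limma (2636 at an unadjusted p under 0.05) and no subcutaneous one (3167). Deviations of same-numbered samples correlated at 0.25, -0.36, 0.42 and 0.02 in gonadal and at -0.11, -0.33, 0.34 and -0.36 in subcutaneous fat for replicates 1 to 4. The signs were mixed, so these values do not settle whether the numbers pair the samples. Depth was not varied, and Mmp13 rests on the fewest reads of the list.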
